A study of Mus musculus with 10 samples.

Results

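The 10 mitochondrially encoded genes examined here are mt-Nd1, mt-Nd2, mt-Nd4, mt-Nd5, mt-Nd6, mt-Cytb, mt-Co1, mt-Co2, mt-Co3 and mt-Atp6. They were taken by gene symbol from a table of normalized counts, and all 10 had a row among its 20813 rows. RNA had been sequenced from 10 leukemic spleens of C57BL/6 mice carrying a transplanted leukemia of the T-ALL type, which arises from developing T cells. Every leukemia carried a conditional Sirt1 allele and was injected into recipients irradiated below the lethal dose. The 5 samples labelled Sirt1-deleted (replicates 7, 8, 10, 11 and 12) carry the title abbreviation TMX and the 5 controls (replicates 2 to 6) the abbreviation VEH. The recipients were given either tamoxifen dissolved in corn oil or the oil without the drug, so the genotype label and the drug cannot be told apart. Spleens were made into cell suspensions, red blood cells were lysed and strand-specific libraries were prepared, per the labels' protocols. The recombinase that acts on the allele and the number of primary leukemias are not given in the sources used here. Nothing in the labels states that each spleen came from a separately derived leukemia, so p-values measure the spread between these samples.

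Animal mitochondria keep a small circular genome that encodes a handful of core subunits of the respiratory chain, while the many other subunits come from nuclear genes. Both strands of the circle are transcribed as long precursors by a dedicated polymerase, and the precursors are cut into separate RNAs, mostly at the transfer RNAs that lie between the genes. Complexes I, III and IV pump protons as electrons pass along them, complex V uses the gradient to make ATP, and complex II is built from nuclear subunits alone. Sirt1 encodes a NAD-dependent protein deacetylase of the nucleus and cytosol that is known for its links to mitochondrial gene programmes.

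The genes lie so close together on the circle that some share bases, which bears on how reads are assigned. Sequences are from GENCODE M21 on the GRCm38 build, the build the submitters' processing notes give under the name mm10. mt-Nd6 is read from the opposite strand to the other 9 genes. Its 3′ end overlaps that of mt-Nd5 by 14 bases, shown in capitals in the last 40 bases of each transcript (chrM:13526-13565, plus strand, and chrM:13552-13591, minus strand).
mt-Nd5: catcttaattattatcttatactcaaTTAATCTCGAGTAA
mt-Nd6: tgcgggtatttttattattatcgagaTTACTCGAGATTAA

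mt-Atp8 and mt-Atp6 are known to be carried on a single mRNA. mt-Atp6 begins inside mt-Atp8, and the 2 genes share 43 bases on the same strand, shown in capitals (chrM:7910-7969 and chrM:7927-7986, plus strand).
mt-Atp8: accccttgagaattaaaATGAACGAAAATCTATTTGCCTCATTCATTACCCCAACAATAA
mt-Atp6: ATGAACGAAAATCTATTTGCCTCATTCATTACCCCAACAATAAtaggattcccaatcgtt

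The annotated length of 3 members, mt-Nd4, mt-Co3 and mt-Cytb, was not a multiple of 3 and left 1 base after the last whole codon. Their last 24 bases are printed beside those of mt-Nd1, mt-Nd2 and mt-Co2, whose length held whole codons, with the bases after the last sense codon in capitals (plus strand, chrM:11521-11544, chrM:9367-9390, chrM:15265-15288, chrM:3684-3707, chrM:4928-4951 and chrM:7673-7696 in the order given). In mitochondria the poly(A) tail is known to complete such a stop codon.
mt-Nd4: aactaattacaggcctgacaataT
mt-Co3: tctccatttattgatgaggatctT
mt-Cytb: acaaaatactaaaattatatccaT
mt-Nd1: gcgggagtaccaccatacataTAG
mt-Nd2: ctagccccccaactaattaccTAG
mt-Co2: aactgatctgcttcaataattTAA

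The values are counts per gene that the authors scaled between samples, called normalized counts here. They summed to nearly the same total in every sample, and depth, estimated from the most frequent low value of each sample, was roughly 31.5 to 38.2 M reads (M, mega). The value of the targeted gene Sirt1 did not separate the groups. It ranged from 1715 to 2097 normalized counts in the labelled Sirt1-deleted samples and from 1735 to 1909 in controls (limma adjusted p = 0.568). The deleted part of the gene is not given in the sources used here, so a value per gene cannot check the label. The group is therefore called by its label throughout. Marker counts below stand beside the shares of all genes tested that passed in limma, 16.8% as higher and 19.4% as lower (36.1% in either direction). Of 12 T lineage genes, which include the CD3 genes, Thy1 (0.56) and Cd3d (0.17) passed as higher. Cd5 (-0.61) and Cd247 (-0.20) passed as lower, and 8 did not pass. This count is near the share of all genes and is not read as a result about T lineage genes. The 4 genes are named because they passed, after their values were seen. The 12 genes' sum was 163628 to 199688 normalized counts under the deleted label and 145677 to 160288 in controls, without overlap. Thy1 was the most abundant and averaged 79592 against 53217, where the sum averaged 183257 against 155828. Only 5 of the 12 log2 differences were above 0, with a median of -0.03, so the sum does not describe the list as a whole. Neutrophil markers moved with the groups: 12 of 13 listed genes rose, and their summed level was 27073 to 93299 in the labelled Sirt1-deleted samples against 8442 to 11725 in controls. Macrophage and monocyte markers also moved, with 10 of 12 listed genes higher, and summed to 4288 to 6640 against 2388 to 2782. Stromal and endothelial markers summed lower without overlap, at 4904 to 5384 against 5660 to 6586, with 2 of 6 tested genes called lower. These were Pdgfrb (-0.61), which averaged 1459 against 2170, and Col1a2 (-0.54), where the sum averaged 5125 against 6034. Pecam1, the most abundant, did not pass (-0.04), and 2 of the 6 log2 differences were above 0. This sum does not describe its list as a whole either. The part of these cells in the results below was not tested. In a bulk sample, a change in the number of cells of a type and a change of RNA per cell cannot be told apart.

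The 10 members took up more of the summed normalized counts in the labelled Sirt1-deleted spleens. The 10 genes together held 3.81% ± 0.541 of the sample total there, against 2.85% ± 0.207 in the control group (SD, n = 5 each), a ratio of 1.33 between the means. The summed share was 4.38%, 3.70%, 3.30%, 3.30% and 4.37% in labelled Sirt1-deleted replicates 7, 8, 10, 11 and 12. In control replicates 2 to 6 it was 2.49%, 2.94%, 2.98%, 2.90% and 2.96%. The groups did not overlap: replicates 10 and 11 lay nearest to the controls, replicates 7 and 12 lay highest, and control replicate 2 lay below the other controls. The share is free of the scaling between samples and is given as a description.

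Singly, 9 of the 10 genes rose, and mt-Nd5 did not pass the test (limma on log2(value + 1), Benjamini-Hochberg adjusted p under 0.05 over all 15276 genes tested). Over all genes tested, 16.8% were called higher (2562 genes, and 2956 lower). Upper-quartile rescaling moved the median of all genes by 0.06 and this split to 3162 higher and 2272 lower. The log2 differences of the 10 genes lay between 0.19 and 0.49 with a median of 0.44, where the median of all genes tested was -0.00014. The same 9 genes had groups that did not overlap, which held for 11.1% of all genes tested as higher. Quantile normalization, which assigns each rank the same value in every sample, left 6 of the 10 called, and mt-Co3 then changed sign (-0.0119) in a table where its rank was between 7 and 10. mt-Cytb (0.20, adjusted p = 0.0552) and mt-Atp6 (0.04, adjusted p = 0.453) also lost their call there.

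**Figure D1:**
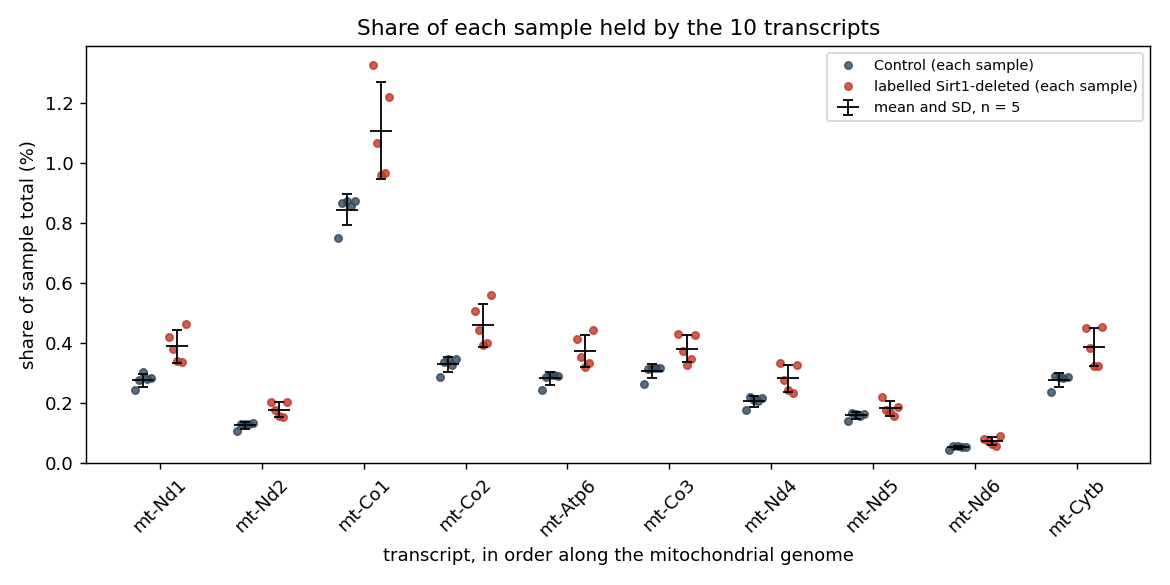
Share of each sample's total (percent, vertical axis) held by each of the 10 mitochondrial transcripts (horizontal axis), with 1 point per sample and the mean and SD of each group. mt-Co1 holds the most, at 1.11% and 0.845% on average, and the groups overlap in share for mt-Nd5 and mt-Nd6 but not for the other 8.

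Complex I holds 5 of the members, all parts of the membrane arm that moves protons. mt-Nd1, whose product lies where the membrane arm meets the peripheral arm, measured 143555, 128836, 116720, 115456 and 156162 normalized counts in labelled Sirt1-deleted replicates 7, 8, 10, 11 and 12. It measured 82004, 93247, 102685, 95634 and 97119 in control replicates 2 to 6. Every labelled Sirt1-deleted sample was above every control, and the log2 difference was 0.48 (SE 0.09, 95% interval 0.29 to 0.67, limma adjusted p = 0.00202).

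mt-Nd2 encodes a proton-pumping subunit and had the largest log2 difference of the 10, 0.49 (SE 0.09, limma adjusted p = 0.00234). Its normalized counts were 69622, 59956, 52966, 52256 and 68084 in the labelled Sirt1-deleted samples, in the same order, and 35691, 44003, 44472, 44421 and 45786 in controls. The 4 higher controls lay close together, and control replicate 2 stood below them.

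mt-Nd4, another of the pumping subunits, rose by 0.45 (SE 0.10, limma adjusted p = 0.00542). Labelled Sirt1-deleted samples measured 113198, 94263, 83288, 79705 and 109447 normalized counts, and controls 59600, 74042, 71383, 70403 and 74619. Its lowest labelled Sirt1-deleted sample, replicate 11, was still above its highest control, replicate 6.

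mt-Nd5, the largest of the pumping subunits and the longest of the 10 transcripts, was the only member that did not pass the test. It measured 74987, 59647, 58145, 53374 and 62796 normalized counts in the labelled Sirt1-deleted samples and 47202, 56505, 55930, 54163 and 55867 in controls. The groups overlapped, because labelled Sirt1-deleted replicate 11 lay below 4 of the controls. Its log2 difference of 0.19 (SE 0.08, 95% interval 0.01 to 0.37, limma adjusted p = 0.0923) has an interval that overlaps those of other members, such as mt-Co3 (0.13 to 0.49). mt-Nd5 passed without labelled Sirt1-deleted replicate 11 (0.24, adjusted p = 0.0359), after upper-quartile rescaling (0.25, adjusted p = 0.0483) and with sample weights (0.21, adjusted p = 0.0464).

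mt-Nd6, the member read from the other strand, averaged 17969 ± 1783 normalized counts in controls and 24539 ± 4088 under the deleted label (SD, n = 5 each). The rise was 0.44 on the log2 scale (SE 0.11, limma adjusted p = 0.00801). Labelled Sirt1-deleted samples measured 26914, 24389, 21984, 19479 and 29930, and controls 14884, 18924, 19328, 18084 and 18625. Replicate 11, at 19479, was only just above the highest control at 19328. As a share of the sample total their order turned, with 0.0566% in replicate 11 and 0.0568% in control replicate 4. Relative to the sum of the other 9 members, mt-Nd6 stood at 1.93% ± 0.133 and 1.88% ± 0.0636 (SD, n = 5 each), and the groups overlapped. The mean log2 ratio differed by 0.03 between the groups, less than the spread of either group. The strand setting of the quantification is not given in the sources used here, so whether the mt-Nd6 row holds reads of the opposite strand could not be checked.

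mt-Cytb is the only mitochondrial gene of complex III and encodes cytochrome b, which carries the sites where ubiquinol is oxidized and ubiquinone reduced. Its normalized counts were 153132, 129589, 110591, 110711 and 152749 in the labelled Sirt1-deleted samples and 80005, 97705, 97275, 97244 and 98648 in controls. The log2 difference was 0.47 (SE 0.10, limma adjusted p = 0.00465). Replicates 7 and 12 were nearly equal and high, replicates 10 and 11 nearly equal and low, and both pairs were above all controls.

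The 3 core subunits of complex IV, cytochrome c oxidase, all rose under the deposited scaling, with mt-Co3 changing sign under quantile normalization as given above. mt-Co1, which holds the centre where oxygen is reduced, had the highest or second highest value of any row in every sample. It measured 452703, 361916, 328624, 332698 and 411066 normalized counts in the labelled Sirt1-deleted samples and 254721, 293374, 297243, 294841 and 301101 in controls (log2 difference 0.38, SE 0.09, limma adjusted p = 0.00712). The lowest labelled Sirt1-deleted sample exceeded the highest control.

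mt-Co2, which receives electrons from cytochrome c, measured 172348, 150283, 134103, 137445 and 188389 normalized counts against 97384, 113952, 118087, 112458 and 119911 (log2 difference 0.47, SE 0.09, limma adjusted p = 0.00313). Here replicate 12 and not replicate 7 was the highest. mt-Co3, a structural core subunit, measured 146445, 127099, 111859, 119623 and 143257 against 89373, 105522, 107833, 108405 and 109432. Its log2 difference was 0.31 (SE 0.08, limma adjusted p = 0.0118), and its lowest labelled Sirt1-deleted value, 111859 in replicate 10, was close to the highest control.

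mt-Atp6 encodes the subunit of complex V through which protons flow back. Its normalized counts were 140716, 119328, 109974, 114903 and 149098 in the labelled Sirt1-deleted samples and 82554, 96452, 100069, 100986 and 100269 in controls (log2 difference 0.39, SE 0.09, limma adjusted p = 0.00559). The 3 mitochondrial mRNAs outside the member list moved the same way. mt-Nd3 rose by 0.44 (limma adjusted p = 0.00425), mt-Nd4l by 0.27 (adjusted p = 0.0392) and mt-Atp8 by 0.25 (adjusted p = 0.0286). The calls of the last 2 were lost in limma without a trend and without single samples: mt-Atp8 without labelled Sirt1-deleted replicate 7 or 12 or control replicate 2 or 3, and mt-Nd4l without any of these or control replicate 4 or 5. mt-Nd4l, whose groups overlapped, also lost its call in the exact rank-sum test (adjusted p = 0.0512).

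**Figure D2:**
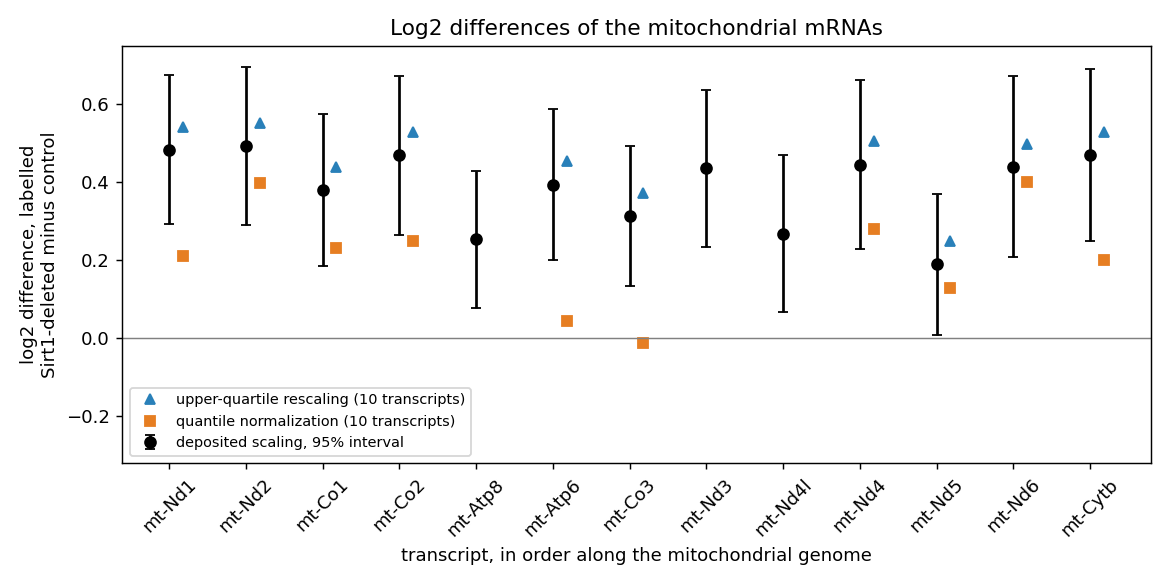
Log2 difference between groups (vertical axis) for the 13 mitochondrial mRNAs in order along the genome (horizontal axis). Black points with 95% intervals use the deposited scaling, and triangles and squares give the 10 members after upper-quartile rescaling and quantile normalization. All black points are above 0, mt-Nd5 is the lowest of them at 0.19, and quantile normalization puts mt-Co3 at -0.0119.

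The members varied together from sample to sample. Over the 45 pairs of members, Pearson's r of log2 values across the 10 samples was 0.810 to 0.996 with a median of 0.977. After each group was centred on its mean the range was 0.755 to 0.988 with a median of 0.945. These are descriptions, and the points share libraries and scaling. The coefficient of variation of the members was 11.5% to 16.7% in the labelled Sirt1-deleted samples and 6.58% to 9.93% in controls.

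Levels per length were compared after dividing normalized counts by the annotated length of each gene. In controls the order per kb was mt-Co1 (186573 ± 12280), mt-Co2 (164267 ± 13007), mt-Atp6 (141066 ± 11389), mt-Co3 (132797 ± 10668), mt-Nd1 (98368 ± 7962), mt-Cytb (82321 ± 6942), mt-Nd4 (50805 ± 4413), mt-Nd2 (41305 ± 3922), mt-Nd6 (34623 ± 3436) and mt-Nd5 (29569 ± 2118), each normalized counts per kb (SD, n = 5). Among the 10 members, those of complexes IV and V thus stood above those of complex I in level per kb. mt-Atp8, the complex V gene outside the list, stood at 50655 ± 3785 in controls, below mt-Nd1. It lies on the same mRNA as mt-Atp6, so a level per kb is given as a description and not as a number of mRNAs. Within each of the 5 controls, every member was above the next in this order. Between samples, the ranges of neighbours overlapped, except that mt-Co3 was apart from mt-Nd1 and mt-Cytb from mt-Nd4. The same order held within each labelled Sirt1-deleted sample, except that mt-Co2 was above mt-Co1 in replicate 12. In that group mt-Co1 had the highest mean at 244273 ± 34586 and mt-Nd5 the lowest mean at 33876 ± 4453 normalized counts per kb (SD, n = 5).

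**Figure D3:**
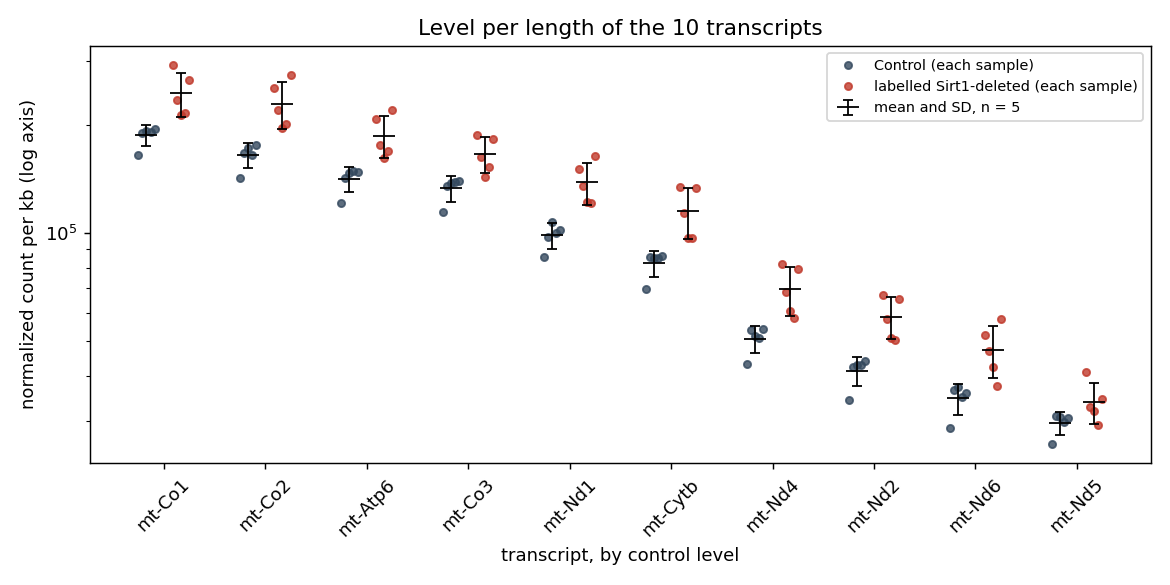
Normalized counts per kb of annotated length (vertical log axis) for the 10 transcripts, ordered by control level (horizontal axis), with each sample as a point and the mean and SD of each group. The control mean runs from 186573 for mt-Co1 down to 29569 for mt-Nd5.

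The make-up of the mitochondrial mRNA pool was then described as each transcript's share of the sum of all 13. This share does not depend on how samples were scaled. mt-Nd5 held 4.87%, 4.62%, 5.0%, 4.56% and 4.15% of the pool in labelled Sirt1-deleted replicates 7, 8, 10, 11 and 12, and 5.42%, 5.51%, 5.35%, 5.27% and 5.30% in control replicates 2 to 6. All labelled Sirt1-deleted samples were below all controls. mt-Co3 held 9.46% to 10.2% against 10.3% to 10.5%, and mt-Atp8 held 0.857% to 0.989% against 0.996% to 1.06%, so these too were lower without overlap. mt-Nd2 held 4.47% to 4.64% against 4.10% to 4.34% and was higher without overlap. For the other 9 transcripts the groups overlapped, including mt-Nd1 (9.90% ± 0.363 against 9.37% ± 0.278) and mt-Co1 (28.2% ± 0.813 against 28.7% ± 0.326, SD, n = 5 each). Scaled to the pool, mt-Co3, mt-Atp8 and mt-Nd2 did not pass in limma (adjusted p = 0.275, 0.133 and 0.296). The share of all genes without overlap on this scale was not computed, so the lack of overlap is given as a description only.

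On this relative scale mt-Nd5 differed by -0.21 on the log2 scale (SE 0.08, limma adjusted p = 0.0299 over all genes tested), the only 1 of the 13 to pass. Dividing by a pool that rose shifts nuclear genes down by construction: 57.2% of all genes tested passed on this scale, 53.3% as lower and 3.93% as higher, so the call is read as a description of mt-Nd5 and not as standing apart from other genes. It was lost in limma without a trend (adjusted p = 0.0559), and of the fits that left out 1 sample it passed only without labelled Sirt1-deleted replicate 7, 10 or 11. Relative to mt-Nd4, the mRNA gene before it on the same strand, mt-Nd5 stood at 64.7% ± 4.73 under the deleted label and at 77.1% ± 1.70 in controls (SD, n = 5 each). This pair was chosen after the values were seen, and its groups did not overlap.

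**Figure D4:**
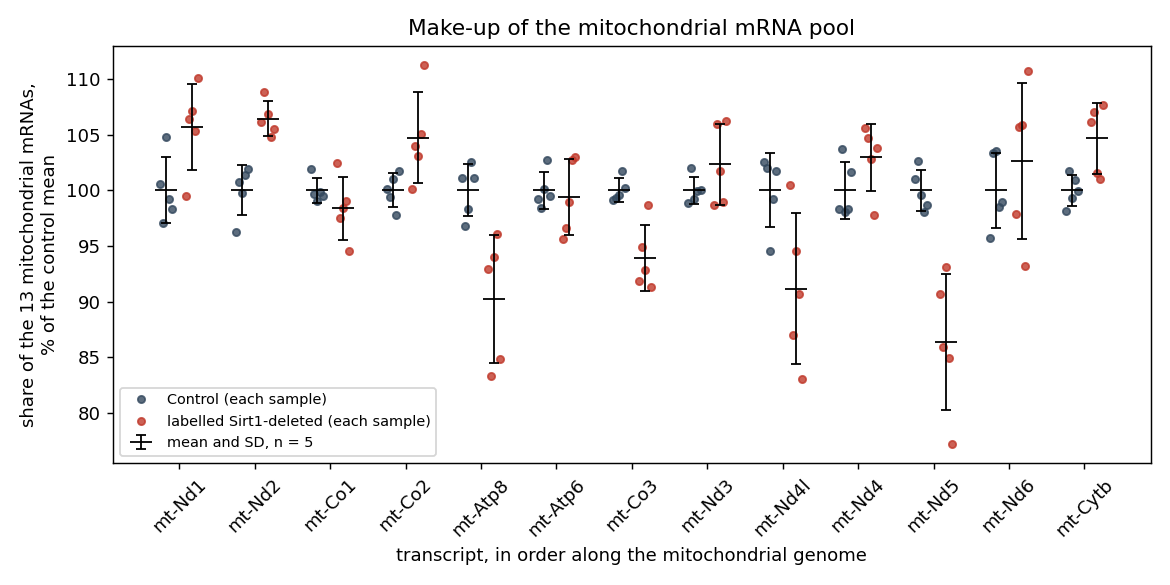
Share of the 13 mitochondrial mRNAs held by each transcript, as a percent of its control mean (vertical axis), in order along the genome (horizontal axis), with each sample as a point and the mean and SD of each group. mt-Nd5 lies lowest in the labelled Sirt1-deleted samples, where it held 4.64% of the pool on average against 5.37% in controls.

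Copies of mitochondrial sequence in the nuclear genome can take reads from the members. GENCODE M21 lists 7 unprocessed pseudogenes side by side on the minus strand of chromosome 1 (GRCm38, chr1:24611535-24616197), each matching a mitochondrial mRNA without a mismatch over at least 97.4% of its length. 4 of them had a row in the table. Gm10925 shared 678 bases with mt-Atp6, Gm28661 681 bases with mt-Co2, Gm28438 342 bases with mt-Nd3, and Gm29216 479 bases with the 3′ part of mt-Co1. The start of the last shared run is printed below with the shared bases in capitals, since only the bases before it tell the 2 loci apart (chrM:6381-6423, plus strand, and chr1:24616155-24616197, minus strand).
mt-Co1: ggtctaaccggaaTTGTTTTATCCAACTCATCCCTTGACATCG
Gm29216: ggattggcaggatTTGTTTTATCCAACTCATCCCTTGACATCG

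The rows of the copies were far more scattered than those of the genes they copy. Gm29216 measured 2730, 8547, 3845, 3496 and 15738 normalized counts in labelled Sirt1-deleted replicates 7, 8, 10, 11 and 12, and 350, 1034, 979, 2278 and 3414 in control replicates 2 to 6. It was 0.137% to 3.83% of mt-Co1 in the same sample. Its log2 difference of 2.16 passed (SE 0.59, limma adjusted p = 0.0132), although the groups overlapped. Gm28438 passed as higher (1.21, adjusted p = 0.00675), Gm10925 as lower (-1.74, adjusted p = 0.0248), and Gm28661 did not pass (-0.69, adjusted p = 0.631). The groups overlapped in all 4 rows, and an exact rank-sum test called none of these rows, against 2 higher and 1 lower at an unadjusted p under 0.05 in limma. The call of Gm10925 was lost without labelled Sirt1-deleted replicate 7 or control replicate 2, 3 or 6, and Gm28661 turned positive (0.35) without control replicate 3. Reads of these rows cannot be told apart from those of the mitochondrial genes over the shared bases, so the 4 rows are reported as uncertain. Summing each copy with its mitochondrial gene left the log2 differences at 0.40 for mt-Co1, 0.46 for mt-Co2 and 0.39 for mt-Atp6.

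The members work in complexes whose other subunits are nuclear, and a list of these was used for each of complexes I, III, IV and V. The lists do not hold every subunit or isoform. Of 73 listed nuclear subunits, 46 rose, 3 fell and 24 did not pass, with a median log2 difference of 0.19. Over all genes tested, 16.8% were called higher and 19.4% lower. The lists were chosen with earlier results of these samples known, so their direction is not independent evidence. In complex I, 21 of 36 rose and 2 fell. Ndufa5 rose most, by 0.53 on the log2 scale (limma adjusted p = 7.99e-04), followed by Ndufa3 (0.46). Ndufa5 averaged 2456 ± 298 normalized counts against 1698 ± 112 (SD, n = 5 each). The falls were in Ndufs8 (-0.19) and Ndufv1 (-0.15), which both encode core subunits of the peripheral arm. Both calls were lost after upper-quartile rescaling and after quantile normalization. That of Ndufs8 was also lost in 7 of the 10 fits without 1 sample (labelled Sirt1-deleted replicates 7, 8 and 12 and control replicates 2 to 5).

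In complex III, 5 of 9 nuclear subunits rose and none fell in limma (2 were lower at an unadjusted p under 0.05, and the exact rank-sum test called 1 lower), led by the small subunits Uqcrq (0.53, adjusted p = 7.89e-04) and Uqcrh (0.33, adjusted p = 0.00833). In complex IV, 10 of 11 rose, led by Cox7c (0.39, adjusted p = 0.00144) and Cox5a (0.35, adjusted p = 9.24e-04). In complex V, 10 of 17 rose, led by Atp5k (0.37) and Atp5j2 (0.37), and Atp5a1, the catalytic-core alpha subunit, fell by 0.28 (limma adjusted p = 0.0139). Complex II has no mitochondrial subunit. Of its 4 genes only Sdhc passed (0.12, adjusted p = 0.0470), a call lost in 9 of the 10 fits that left out 1 sample, all but that without labelled Sirt1-deleted replicate 7.

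The balance between the 2 genomes was described for each complex as the summed members over the summed nuclear subunits of its list. For complex I the ratio was 3.39 ± 0.428 under the deleted label and 2.84 ± 0.147 in the control group (SD, n = 5 each), and for complex IV it was 8.5 ± 0.899 and 7.69 ± 0.277. In both complexes the groups overlapped. For complex III, where mt-Cytb is the only member, it was 2.96 ± 0.516 and 2.28 ± 0.15. For complex V, with mt-Atp6 alone, it was 0.775 ± 0.129 and 0.607 ± 0.0361. Neither overlapped, but by narrow margins. The lowest labelled Sirt1-deleted sample stood at 2.43 against 2.41 in the highest control for complex III, and at 0.649 against 0.634 for complex V. Nuclear subunits of complexes I, III and IV also held a larger share of the total without overlap, at 0.324%, 0.131% and 0.229% on average against 0.287%, 0.121% and 0.192%. Those of complex II held 0.0755% ± 0.00310 and 0.0761% ± 0.000838.

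**Figure D5:**
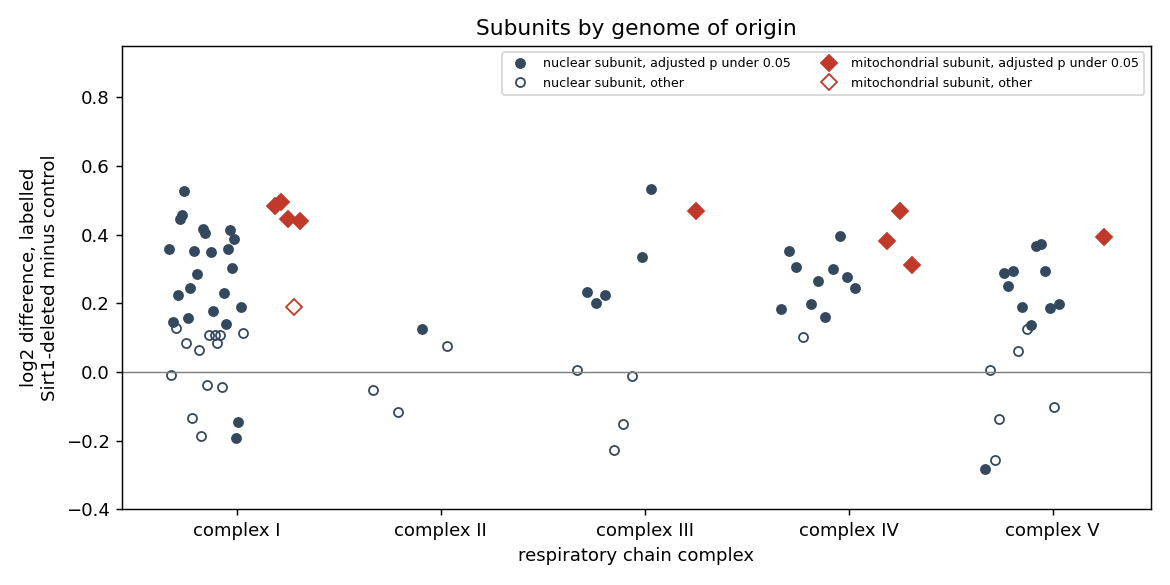
Log2 difference between groups (vertical axis) for nuclear subunits (circles) and the 10 mitochondrial members (diamonds) of each respiratory chain complex (horizontal axis); filled symbols have a limma adjusted p under 0.05. The members lie between 0.19 and 0.49, and the nuclear subunits between -0.28 and 0.53.

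The nuclear genes that transcribe, process and maintain the mitochondrial genome did not move as a block. Over their 3 lists 19 of 47 genes passed (40.4%), near the 36.1% of all genes tested that passed in either direction, so the counts are not read as a result about these genes. Of 11 transcription genes, 4 rose in limma (36.4%, against 16.8% of all genes tested) and none fell (0%, against 19.4%). Among the 11, 4 were higher and 0 lower at an unadjusted p under 0.05 in limma. The exact rank-sum test called 3 higher and 0 lower, where it called 1691 higher and 1968 lower of all 15276 genes tested. The median log2 difference of the 11 was -0.00. Polrmt, the mitochondrial RNA polymerase, averaged 1363 ± 90.0 normalized counts in controls and 1810 ± 332 under the deleted label (SD, n = 5 each), a rise of 0.39 (limma adjusted p = 0.0110). Tfam, which packages mitochondrial DNA and starts its transcription, measured 3650 ± 250 and 3445 ± 329 (log2 difference -0.09, 95% interval -0.24 to 0.07, adjusted p = 0.366). Mterf1a, a gene of the mitochondrial transcription termination factor, rose by 0.42 (adjusted p = 0.00994), and reads could be shared with its close copy Mterf1b.

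Of 22 genes of mitochondrial RNA processing and stability, 2 rose (9.09%, against 16.8% of all genes tested) and 8 fell (36.4%, against 19.4%), with a median log2 difference of -0.14. At an unadjusted p under 0.05 in limma 3 were higher and 10 lower, and the exact rank-sum test called 0 higher and 4 lower. Elac2, the endonuclease that trims the 3′ ends of transfer RNAs, fell by 0.32 (limma adjusted p = 0.0110), and Pde12, which removes poly(A) tails in mitochondria, fell by 0.30 (adjusted p = 0.00914). Fastk, whose mitochondrial form is known to be needed for mt-Nd6 mRNA, rose by 0.30 (adjusted p = 0.0102). Lrpprc and Slirp encode partners in a complex that stabilizes mitochondrial mRNAs, and they moved in opposite directions. Lrpprc averaged 5031 ± 301 in controls and 4339 ± 479 under the deleted label (SD, n = 5 each; -0.22, adjusted p = 0.0331), and Slirp rose by 0.30 (adjusted p = 0.0228). Lrpprc lost its call in 4 of 13 alternatives: upper-quartile rescaling, quantile normalization, limma without a trend and the exact rank-sum test. Its call was also lost without labelled Sirt1-deleted replicate 7, 8 or 12 or control replicate 2, 5 or 6. Slirp lost its call without control replicate 2 or 3.

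Of 14 genes that maintain mitochondrial DNA, 3 rose and 2 fell, together 35.7% against 36.1% of all genes tested. At an unadjusted p under 0.05 in limma 4 were higher and 2 lower, and the exact rank-sum test called 2 higher and 1 lower. Twnk, the replicative helicase, rose by 0.31 (limma adjusted p = 0.00524) and Ssbp1, the single-strand binding protein, by 0.24 (adjusted p = 0.00368). Polg, the catalytic subunit of the mitochondrial DNA polymerase, rose by 0.20 (adjusted p = 0.0324). That call was lost in limma without a trend and in 6 of the 10 fits without 1 sample (labelled Sirt1-deleted replicates 7, 8 and 12 and control replicates 2, 5 and 6). Lig3, a DNA ligase shared by nucleus and mitochondria, fell by 0.43 (adjusted p = 0.0151), and Rrm2b, a subunit of ribonucleotide reductase, fell by 0.27 (adjusted p = 0.0251). The call of Rrm2b was lost after upper-quartile rescaling and without labelled Sirt1-deleted replicate 7 or control replicate 2. Of the 3 lists together, 11 genes passed without control replicate 2 and 12 without labelled Sirt1-deleted replicate 7. By the exact rank-sum test 10 passed, and Mterf1a, Elac2, Pde12, Fastk, Lrpprc, Slirp, Polg and Lig3 were not among them.

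Genes whose pattern over the 10 samples was most like the members' sum were named by Pearson's r of log2 values among 10739 rows with a mean of at least 100. The highest were Dnajc7 (r = 0.989), Dalrd3 (0.982), Mdk (0.982), Zfp950 (0.982) and Snrnp70 (0.981). Dnajc7, which encodes a co-chaperone, averaged 7671 ± 640 normalized counts in controls and 10532 ± 1376 under the deleted label (SD, n = 5 each; limma adjusted p = 0.00253). The lowest were Pelp1 (r = -0.993), Fbxo38 (-0.991), Slc25a44 (-0.990), Scara3 (-0.987) and Parp1 (-0.985). Parp1, which encodes the main poly(ADP-ribose) polymerase, fell by 0.41 (adjusted p = 0.00485). After each group was centred on its mean, the highest were Slc7a6os (0.973), Churc1 (0.973), Dnajc7 (0.968), Fdx1l (0.954) and Bcat2 (0.953). All these points share libraries and scaling, and the genes were picked as extremes of a large table. The members' sum did not overlap between the groups. The group differences and p-values of Dnajc7 and Parp1 therefore follow from how the genes were picked and are not separate evidence.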

How the data were processed

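RNA-seq of 10 leukemic spleens was analysed, 5 labelled Sirt1-deleted and 5 control. The submitters' processing notes name kallisto 0.44.0, DESeq and mm10. The deposited values are treated as a normalized signal, counts per gene scaled by the authors with DESeq according to the name they gave the table, and not as raw counts. Settings and annotation are not given in the sources used here. The table has 0 columns outside the 10 samples. Whole reads were not recovered: only 64.6% to 74.0% of low values were a whole number of reads to within 0.1, and no count test was run.

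log2(value + 1) was tested with limma 3.58.1 in R 4.3.3 (group only, intensity trend) for 15276 genes with a mean of at least 10, with Benjamini-Hochberg adjustment, and the script was tested on simulated data. Fold changes on this scale understate low genes. Shares, ratios and sequence matches were computed in Python 3.11.15. Members and lists were chosen with earlier results of these data known. Named were all members, other mitochondrial rows, nuclear copies, Sirt1, Polrmt, Tfam, Lrpprc, Polg, Twnk, up to 2 rises and 2 falls per list, and the genes most and least correlated with the members. 2 listed names that the annotation does not give as copies were left out. The lists of erythroid, B cell, and megakaryocyte and platelet markers had no called gene in limma or by the exact rank-sum test (0 of 10, 0 of 7 and 0 of 6; at an unadjusted p under 0.05, 1 lower, 2 higher and 1 lower). The 2 mitochondrial ribosomal RNAs had no row under their listed names, so the sample totals do not include them and they were not analysed here.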

Additional observations from a re-analysis of the deposited data

Results flagged for a closer look

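In 40 sets of 5 samples (the 13 mitochondrial mRNAs, the summed share, the ratio of mt-Nd6 to the other members, the 4 nuclear copies and Sirt1, in each group), the distance of the highest or lowest sample from the next one was expressed relative to the group's range. This ratio exceeded the critical value of 0.71 in 12 sets, where chance at 1 in 20 gives 2. The sets are not independent, since the members move together, and 10 of the 12 concern control replicate 2.

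Control replicate 2 was the lowest control for mt-Atp6 (82550 normalized counts against 96450 in the nearest control), mt-Co1 (254700 against 293400), mt-Co3 (89370 against 105500), mt-Cytb (80010 against 97240), mt-Nd2 (35690 against 44000), mt-Nd3 (10810 against 12910), mt-Nd4 (59600 against 70400), mt-Nd5 (47200 against 54160) and mt-Nd6 (14880 against 18080). The share of its total held by the 10 members was 2.487%, against 2.90% to 2.98% in the other controls. Its approximate depth, 35.0 M reads, lay within the range of the others. Without it the log2 difference of each member was smaller, for example 0.41 for mt-Cytb and 0.34 for mt-Co1, and 9 of 10 members still passed in limma.

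The nuclear copy Gm28661 was far above its group in 2 samples, at 2204 normalized counts in control replicate 3 against 33.2 to 179 in the other controls, and at 320.9 in labelled Sirt1-deleted replicate 11 against 26.8 to 98.7. Its sequence is shared with mt-Co2, which measured 113952 in control replicate 3.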

How the results depend on the processing

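No paired analysis was possible because no replicate number occurs in both groups. The results on mt-Nd5 relative to the pool, the sums with the nuclear copies and the share over 13 rows were chosen after seeing the data.

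Members called higher numbered 6 to 10 over 13 alternatives and 9 or 10 in the 10 fits without 1 sample. Only quantile normalization changed a member's sign (mt-Co3, -0.0119). The difference in summed share, 0.954 percentage points, was 0.812 to 1.08 without 1 sample. The mean log2 ratio of mt-Nd6 to the others was 0.00620 to 0.0690 without 1 sample. The exact rank-sum test called 3659 genes in all against 5518 (4207 to 6259 without 1 sample), and 10 genes of mitochondrial gene expression and DNA maintenance against 19 (11 to 23 without 1 sample). Nuclear subunits called higher numbered 37 to 48 without 1 sample, against 46. mt-Nd5 relative to the pool did not pass in limma without a trend (-0.214, adjusted p = 0.0559) and was -0.242 to -0.174 without 1 sample, passing in 3 of 10. The log2 difference of Gm28661 was -1.201 to 0.348 without 1 sample and changed sign without control replicate 3 (adjusted p = 0.722). Of 47 other named genes, 19 lost their call under some alternative and 11 without some sample; the cause was not tested. No depth is recorded, so no counting limits were set.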
